A study of Rattus norvegicus with 44 samples.

Results

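Liver at the highest dose of crude MCHM was compared with liver of vehicle-dosed rats, gene by gene. The members are the 4 liver arrays whose titles give 500 mg/kg and the 4 liver arrays whose titles give 0 mg/kg, 8 of the 44 arrays in the series. Crude MCHM is a coal-cleaning liquid whose main component is 4-methylcyclohexanemethanol, a cyclic alcohol. The series holds 27 liver and 17 kidney arrays (an Affymetrix whole-genome rat array) over a vehicle group of 0 mg/kg and doses that run from 0.1 to 500 mg/kg. Rats of both groups were male Harlan Sprague Dawley, kept on the NTP-2000 diet and 6 to 8 weeks old at assignment. Rats of the 500 mg/kg group received crude MCHM in corn oil by gavage on 5 consecutive days at 5 mL/kg, and rats of the 0 mg/kg group received the corn oil vehicle in the same way. Both were killed on the day after the last dose, so the livers reflect repeated dosing and 1 time after it. The labels call the arrays of a group biological replicates. Arrays with batch effects were removed by the submitters before deposit and are not analysed here.

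The liver clears foreign, fat-soluble compounds by oxidising them with cytochrome P450 enzymes and then coupling them to glutathione, glucuronic acid or sulfate. Nuclear receptors set the level of these enzymes: CAR and PXR act on P450s of the 2B and 3A families, and PPARA acts on the 4A family together with the enzymes of fat oxidation in mitochondria and peroxisomes. The factor NRF2 responds to electrophiles and raises antioxidant and conjugation enzymes. Hepatocytes also secrete most plasma proteins, among them protease inhibitors and hormone carriers.

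One array went against its label. Xist, the RNA that coats the inactive X chromosome of female cells, read 10.999 log2 units in vehicle replicate 2, against 2.29 to 3.04 in the other liver arrays, and its other 3 probe sets were likewise high in that array only. The Y-linked gene Eif2s3y read 9.26 there, within the 8.94 to 9.49 of the other liver arrays. The sex-dependent liver P450s Cyp2c11 (13.53) and Cyp2c12 (11.31) also lay within the range of the other arrays. What lies behind the Xist reading was not tested. The calls are given below with and without this array, as are the changes of many called genes and the stellate marker median. Most other list medians, and the changes of genes that did not pass, are given only with it. The 8 arrays correlated with each other at 0.989 to 0.993 across probe sets. Hepatocyte markers were bright, with a mean level of 13.48 to 13.62 in the 500 mg/kg arrays and 13.58 to 13.62 in the vehicle arrays. The 5 measured kidney markers averaged 4.99 to 5.07 at 500 mg/kg and 4.88 to 5.03 in vehicle.

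At 500 mg/kg, genes of P450 oxidation, fat oxidation and antioxidant defence were among those that rose, and genes for secreted proteins were among those that fell. Of 31042 probe sets tested, 55 passed an adjusted p of 0.05 (0.177%), 37 higher (0.119%) and 18 lower (0.058%) in dosed liver. Adjusted p-values are from limma with Benjamini-Hochberg adjustment over all probe sets. A further measure of scale is that 2792 probe sets (8.99%) had an unadjusted p below 0.05. Of the 55, 50 carry 1 gene symbol and name 44 genes, of which 30 rose and 14 fell. In 54 of the 55 the dosed arrays did not overlap the vehicle arrays. That separation by itself was common, since 1054 of all probe sets (3.4%) had all 4 dosed arrays above all 4 vehicle arrays and 754 (2.43%) had them below. Changes were small, from 1.22-fold to 3.54-fold, and 9 probe sets exceeded 1 log2 unit.

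**Figure D1:**
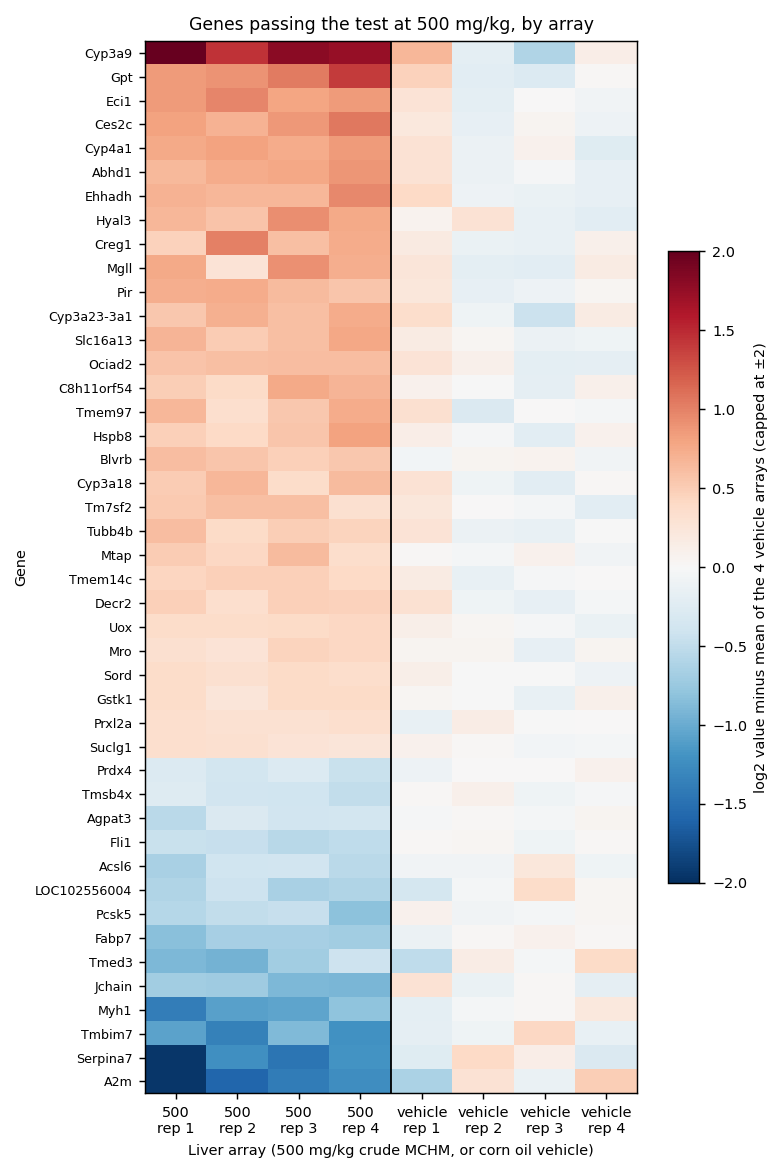
Log2 value minus the mean of the 4 vehicle arrays (colour, capped at 2 units either way) for the 44 genes that passed the test, each by its called probe set with the largest change, in the 4 arrays at 500 mg/kg (left) and the 4 vehicle arrays (right). The 30 risen genes are red in all 4 dosed arrays and the 14 fallen genes blue, and vehicle replicate 1 lies toward the dosed arrays for many of the risen genes.

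The number of calls depended on single arrays. It was 14 without vehicle replicate 2, the array that reads Xist, and ran from 9 without vehicle replicate 3 to 84 without vehicle replicate 1, the array nearest the dosed ones in many of the risen genes. Without replicates 1, 2, 3 and 4 of the 500 mg/kg group it was 17, 42, 19 and 13, and without vehicle replicate 4 it was 11. Abhd1, Eci1, Fabp7, Myh1, Serpina7 and Tmem14c passed in all 8 such fits. Of the 44 genes, 10 passed without vehicle replicate 2: those 6 with Blvrb, Hyal3, Ociad2 and Tmbim7. With only the 8 arrays in the fit, which leaves few arrays to estimate the spread, 1 probe set passed and it belonged to none of the 44 genes. No gene of the 44 changed its direction in any of these fits, but this was nearly fixed in advance. Leaving out an array cannot reverse a change whose groups do not overlap, as held for all called probe sets but that of Tmed3. A fit of only the 8 arrays leaves the group means as they are.

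RefSeq promoter sequences (GRCr8) were matched by gene ID to 35 of the 44 genes. They are shown for 3 risen genes from the CAR and PXR, PPARA and NRF2 groups below. The 3 were picked because their upstream bases hold a letter pattern that nuclear receptors or NRF2 are known to bind, and they do not represent their groups. The nuclear receptor pattern was absent upstream of Cyp3a9, Cyp3a18, Ces2c, Ehhadh and Decr2, and the NRF2 pattern upstream of Blvrb. The 250 bases before the annotated start are given 5′ to 3′ on the gene's strand, with matches in capitals. Cyp3a23-3a1 lies at chr12:14398804-14399053 on the minus strand, Eci1 at chr10:13961000-13961249 on the plus strand and Pir at chrX:33851050-33851299 on the minus strand.
Cyp3a23-3a1: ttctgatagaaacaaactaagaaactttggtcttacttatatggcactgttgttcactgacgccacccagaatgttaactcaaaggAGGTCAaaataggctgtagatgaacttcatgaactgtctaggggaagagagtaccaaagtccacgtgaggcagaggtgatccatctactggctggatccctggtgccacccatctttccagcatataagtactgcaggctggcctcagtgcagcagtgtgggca
Eci1: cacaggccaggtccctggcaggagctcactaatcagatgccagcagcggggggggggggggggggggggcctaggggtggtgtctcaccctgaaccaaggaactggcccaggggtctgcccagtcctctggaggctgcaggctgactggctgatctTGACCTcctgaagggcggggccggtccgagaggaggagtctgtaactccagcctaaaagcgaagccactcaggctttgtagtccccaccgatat
Pir: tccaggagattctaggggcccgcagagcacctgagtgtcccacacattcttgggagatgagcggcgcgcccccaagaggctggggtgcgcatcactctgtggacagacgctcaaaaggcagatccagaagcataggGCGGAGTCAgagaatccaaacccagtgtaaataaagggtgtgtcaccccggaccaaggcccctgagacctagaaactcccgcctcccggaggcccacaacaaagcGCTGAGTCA
The capitals mark the nuclear receptor half-site AGGTCA, read on either strand, in Cyp3a23-3a1 (first base at -164 from the start) and Eci1 (-94), and the core of the antioxidant element, TGACNNNGC, in Pir (-114 and -9). The half-site was found upstream of 3 of 24 risen genes (Uox beside the printed ones) and 2 of 11 fallen genes with a sequence, and in 13.7% of all 27457 promoters. The antioxidant core was found in 2 of 24 risen genes (Abhd1 is the other) and 1 of 11 fallen genes, and in 10.2% of all promoters. A direct repeat of the half-site with a spacer of 1 base was in none of the 35 and in 0.0546% of all, and the sterol pattern TCACNCCAC was in 1 of 24 risen genes, Ehhadh, and in 0.976% of all. Both strands were searched, and the half-site can share bases with its repeat and with the antioxidant core. These are matches of letters in a short window and not measured binding, and the shares among called genes lie near those of all promoters for the half-site and the antioxidant core.

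P450s of the 3A family and a carboxylesterase rose. The list of P450s and conjugation genes linked to CAR and PXR has 21 measured members. Of these 4 rose (Cyp3a9, Cyp3a18, Cyp3a23-3a1 and Ces2c), none fell and 18 had a change above 0, with a median of 0.17 log2 units. Over all 14217 genes, each by its brightest probe set, 0.19% rose, 0.0774% fell, 52.8% had a change above 0 and the median was 0.01. This list and those below were chosen with earlier results of these data known, so a higher share in a list can be partly built in. Cyp3a9, a P450 of the 3A family, read 9.83, 9.26, 9.62 and 9.56 in 500 mg/kg replicates 1 to 4, against 8.48, 7.63, 7.21 and 7.95 in vehicle replicates 1 to 4, the order used throughout. All 4 dosed arrays lay above the highest vehicle array, replicate 1, and the vehicle arrays were the more spread. The change was 1.75 ± 0.32 (SE), or 3.36-fold, with an adjusted p of 0.0224, and was the largest rise among named genes that passed.

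Cyp3a23-3a1, the 3A enzyme best known for its response to PXR agonists in rat liver, was already bright. It read 13.09, 13.26, 13.15 and 13.28 at 500 mg/kg, against 12.90, 12.46, 12.12 and 12.70 in vehicle. The groups did not overlap and the change was 0.65 ± 0.13 (adjusted p 0.0306). Cyp3a18, a further 3A enzyme, read 12.85, 13.003, 12.71 and 12.97, against 12.62, 12.25, 12.13 and 12.36 in vehicle. The nearest arrays of the 2 groups, dosed replicate 3 and vehicle replicate 1, were close, and the change was 0.55 ± 0.11 (adjusted p 0.0291). Ces2c, a carboxylesterase that splits esters and amides, read 8.22, 8.11, 8.28 and 8.46, against 7.62, 7.25, 7.47 and 7.31 in vehicle, with no overlap. Its change was 0.85 ± 0.17 (adjusted p 0.0306).

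Cyp3a2, the 3A enzyme of mature male rats, had values of 13.77, 13.90, 13.93 and 13.86 at 500 mg/kg and 13.86, 13.74, 13.73 and 13.71 in vehicle, which overlapped, and did not pass (0.10). The 3A genes are close in sequence, and whether their probe sets read each other's transcripts was not tested. Cyp2b2 and Cyp2b1 are not analysed here. The calls of Cyp3a9 and Ces2c were lost without any 1 of dosed replicates 1, 3 and 4 or vehicle replicates 2, 3 and 4, those of Cyp3a18 without dosed 1, 2 or 4 or vehicle 2, 3 or 4, and that of Cyp3a23-3a1 without any array but vehicle replicate 1. Their adjusted p then reached at most 0.112, 0.143, 0.154 and 0.165. Leaving out vehicle replicate 2 gave changes of 1.69, 0.80, 0.51 and 0.62.

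Some enzymes of fat oxidation rose: Eci1 of mitochondria, Ehhadh and Decr2 of peroxisomes, and Cyp4a1. Of 37 measured PPARA-linked genes, 4 rose (Eci1, Ehhadh, Cyp4a1 and Decr2), none fell, and 29 had a change above 0, with a median of 0.11. Among those below 0, Aqp7, a glycerol channel, had -0.63 (adjusted p 0.362) and Crot, a peroxisomal acyltransferase, -0.33 (adjusted p 0.514), with overlapping groups, and neither passed. Eci1, the mitochondrial isomerase that lets unsaturated fatty acids enter beta-oxidation, read 11.92, 12.05, 11.86 and 11.92 at 500 mg/kg, against 11.34, 10.87, 11.07 and 10.99 in vehicle. The dosed arrays lay in a narrow band well above the vehicle arrays, and the change was 0.87 ± 0.11 (adjusted p 0.000314). A second, dim probe set of Eci1 went the other way, with 3.86, 3.48, 3.39 and 3.71 at 500 mg/kg and 3.96, 3.87, 4.06 and 4.10 in vehicle (-0.39, not passed).

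Cyp4a1, which hydroxylates the end carbon of fatty acids and is a classic PPARA target in rats, read 11.66, 11.70, 11.64 and 11.75, against 11.18, 10.77, 10.98 and 10.64 in vehicle. Its dosed arrays had an SD of 0.05, and the change was 0.79 ± 0.15 (adjusted p 0.0249). Ehhadh, the bifunctional enzyme of peroxisomal beta-oxidation, read 11.55, 11.51, 11.52 and 11.81, against 11.25, 10.76, 10.72 and 10.68 in vehicle, where replicate 1 stood apart. The groups did not overlap, and the change was 0.74 ± 0.13 (adjusted p 0.0126). Decr2, a peroxisomal reductase of unsaturated fatty acids, read 10.73, 10.59, 10.73 and 10.72, against 10.56, 10.17, 10.09 and 10.21 in vehicle, with a gap of few hundredths between the nearest arrays (0.43 ± 0.09, adjusted p 0.0344).

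Other members stayed short of the threshold: Acot2, a mitochondrial acyl-CoA thioesterase, had 0.35, Acadvl, the first enzyme of long-chain beta-oxidation, 0.21, and Plin2, a coat protein of lipid droplets, 0.41. The call of Eci1 held with each array left out (adjusted p at most 0.00297). That of Ehhadh was lost without dosed replicate 4 or vehicle replicates 2, 3 or 4 (at most 0.0769), and those of Cyp4a1 and Decr2 also without dosed replicates 1 or 3 (at most 0.0959 and 0.18). Leaving out vehicle replicate 2, the changes of Eci1, Ehhadh, Cyp4a1 and Decr2 were 0.80, 0.71, 0.75 and 0.41.

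Of 24 measured NRF2-linked genes, Blvrb and Pir rose, none fell and 21 had a change above 0 (median 0.21). In 11 of the 24 all dosed arrays lay above all vehicle arrays, which held for 4.53% of all genes. Blvrb, a flavin reductase that acts in heme breakdown, read 10.62, 10.55, 10.48 and 10.54 at 500 mg/kg, against 9.94, 10.06, 10.08 and 9.93 in vehicle. Both groups were tight and did not overlap (0.55 ± 0.09, adjusted p 0.00916). Pir, an iron-binding nuclear protein whose promoter is printed above, read 7.74, 7.76, 7.65 and 7.58, against 7.24, 6.86, 6.92 and 7.06 in vehicle. It too showed no overlap (0.66 ± 0.11, adjusted p 0.00916).

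Gsta3, a glutathione transferase, had a change of 1.19, all dosed arrays above all vehicle arrays, and an adjusted p of 0.173. Nqo1, the quinone reductase used as an NRF2 marker, read 8.04, 8.12, 8.00 and 7.91 at 500 mg/kg and 7.95, 7.29, 7.34 and 7.22 in vehicle. Vehicle replicate 1 lay among the dosed arrays and the gene did not pass (0.57, adjusted p 0.27). Among 20 measured glutathione transferases 1 rose and none fell, with 16 above 0 and a median of 0.17. That gene, Gstk1, is the transferase of mitochondria and peroxisomes and read 11.51, 11.38, 11.53 and 11.53, against 11.18, 11.14, 10.995 and 11.25 in vehicle (0.35 ± 0.07, adjusted p 0.0306), with no overlap. A probe set shared by Gsta5 and Gsta2, which cannot be told apart there, also rose (0.49, adjusted p 0.0344). The call of Blvrb was lost without vehicle replicate 4 (adjusted p 0.0551), that of Pir without vehicle replicates 2 or 3 (at most 0.0613), and that of Gstk1 without dosed replicates 1, 3 or 4 or vehicle replicates 2, 3 or 4 (at most 0.165). The 3 changes without vehicle replicate 2 were 0.57, 0.61 and 0.35.

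In cholesterol synthesis 2 of 20 measured genes rose, none fell, and 18 had a change above 0 (median 0.14). Tmem97, a sterol-regulated membrane protein known as the sigma-2 receptor, has a pair of probe sets that both passed. The brighter read 10.31, 10.15, 10.29 and 10.46 at 500 mg/kg, against 9.99, 9.46, 9.79 and 9.84 in vehicle, without overlap (0.53 ± 0.09, adjusted p 0.0163). Tm7sf2, a reductase of the sterol ring, read 11.05, 11.12, 11.13 and 10.84, against 10.75, 10.53, 10.48 and 10.32 in vehicle (0.51 ± 0.11, adjusted p 0.0364). Dosed replicate 4 and vehicle replicate 1 were nearest each other. Fatty acid synthesis had none called among 20 genes, although 19 had a change above 0 (median 0.26). Thrsp, a lipogenic protein, had a change of 0.98 with adjusted p 0.161 and Elovl6, a fatty acid elongase, 0.85 with adjusted p 0.362. Tmem97 lost its call without dosed replicates 1 or 4 or vehicle replicates 2 or 3 (adjusted p at most 0.0959), and Tm7sf2 without any array but vehicle replicate 1 (at most 0.149). Their changes without vehicle replicate 2 were 0.43 and 0.52.

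Of 19 measured carboxylesterases and alpha/beta hydrolases, Abhd1 and Ces2c rose and none fell, with 11 above 0 and a median of 0.06. Abhd3, whose arrays overlapped, had -1.18 (adjusted p 0.797), and Abhd10, with all dosed arrays below all vehicle arrays, had -0.35 (adjusted p 0.372), and neither passed. Abhd1, an alpha/beta hydrolase, had the smallest adjusted p of the comparison. Its brighter probe set read 8.69, 8.78, 8.81 and 8.93 at 500 mg/kg, against 8.33, 7.93, 8.03 and 7.88 in vehicle (0.76 ± 0.09, adjusted p 0.000143). Its other probe set read 6.92, 6.81, 6.96 and 6.85, against 6.38, 6.20, 6.05 and 6.09 in vehicle (0.70 ± 0.10, adjusted p 0.000637). Neither showed overlap, and both passed with each array left out (adjusted p at most 0.0019 and 0.00683).

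Mgll, which splits monoacylglycerols, passed with 2 of 4 probe sets. The one with the larger change read 9.06, 8.58, 9.22 and 9.03, against 8.54, 8.11, 8.09 and 8.46 in vehicle, where dosed replicate 2 came within a few hundredths of vehicle replicate 1 (0.67 ± 0.14, adjusted p 0.0425). The other probe sets had 0.51 and, for the dimmest, -0.07, and neither passed. Hyal3, a member of the hyaluronidase family, read 7.96, 7.85, 8.21 and 8.04, against 7.37, 7.57, 7.15 and 7.07 in vehicle (0.73 ± 0.15, adjusted p 0.0353). Creg1, a lysosomal glycoprotein, passed with both probe sets. The one with the larger change read 10.20, 10.75, 10.35 and 10.49, against 9.92, 9.61, 9.59 and 9.85 in vehicle, without overlap (0.71 ± 0.15, adjusted p 0.0388). Without vehicle replicate 2 the changes of Mgll, Hyal3 and Creg1 were 0.61, 0.82 and 0.66, and only Hyal3 then passed (0.0498), while Hyal3 was lost without dosed replicates 1, 3 or 4 or vehicle replicates 3 or 4 (at most 0.165). Mgll was lost without dosed 1, 3 or 4 or vehicle 2, 3 or 4 (at most 0.199), and Creg1 without any array but vehicle replicate 1 (at most 0.18).

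Among 29 measured genes of amino acid breakdown and the urea cycle 1 rose, Gpt, and none fell, with 20 above 0 and a median of 0.06. Gpt encodes the cytosolic alanine aminotransferase, the enzyme measured in serum as ALT. It read 9.75, 9.78, 9.93 and 10.28 at 500 mg/kg, against 9.36, 8.68, 8.61 and 8.91 in vehicle. The groups did not overlap, with vehicle replicate 1 again highest of its group, and the change was 1.05 ± 0.22, or 2.06-fold (adjusted p 0.0366). It passed only in the fit without vehicle replicate 1 when single arrays were left out, the highest adjusted p being 0.193, and was 0.98 without vehicle replicate 2. Prodh, which opens proline breakdown, had 0.52 (adjusted p 0.0661), and Gpt2, the mitochondrial aminotransferase, 0.42 (adjusted p 0.2).

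The other risen genes, which belong to none of the lists, spanned 0.29 to 0.64 log2 units. Slc16a13, of the monocarboxylate transporter family, rose by 0.64, Ociad2 by 0.61, C8h11orf54 by 0.58, Hspb8, a small heat shock protein, by 0.56, and Tubb4b, a beta-tubulin, by 0.48. Mtap, which salvages methylthioadenosine, also rose by 0.48 in a probe set that is not its brightest. Tmem14c, a mitochondrial membrane protein needed for heme synthesis, rose by 0.44 in a tight set of arrays: 10.74, 10.79, 10.78 and 10.70 at 500 mg/kg, against 10.47, 10.17, 10.28 and 10.32 in vehicle (adjusted p 0.00719, at most 0.0498 with an array left out). Uox, urate oxidase of the peroxisome, rose by 0.38, Mro by 0.36, Sord, sorbitol dehydrogenase, by 0.36, Prxl2a by 0.32 and Suclg1, a subunit of succinate-CoA ligase, by 0.29. A probe set without a gene symbol rose by 1.20 and another by 0.39. Mtap and Prxl2a lost their calls whichever array was left out, and the highest adjusted p among these genes was then 0.213, for Tubb4b.

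Among the fallen genes, 2 encode proteins that the liver secretes into plasma. A2m, alpha-2-macroglobulin, a protease inhibitor and acute phase protein of the rat, read 8.17, 8.54, 8.72 and 8.87 at 500 mg/kg, against 9.48, 10.41, 9.98 and 10.61 in vehicle. All dosed arrays lay below the lowest vehicle array, replicate 1. The change was -1.54 ± 0.27, or 2.91-fold lower (adjusted p 0.0153), and the largest fall among named genes that passed. Serpina7, thyroxine-binding globulin, a carrier of thyroid hormone in blood, read 8.19, 8.91, 8.68 and 8.95, against 9.89, 10.54, 10.27 and 9.86 in vehicle. The groups did not overlap, dosed replicate 4 and vehicle replicate 4 being nearest, and the change was -1.46 ± 0.23, or 2.74-fold lower (adjusted p 0.00569). Without vehicle replicate 2 the changes were -1.45 (adjusted p 0.0626) and -1.32 (0.0428). Serpina7 passed with each array left out, and A2m was lost without dosed replicate 1 or vehicle replicates 2, 3 or 4 (at most 0.0772).

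Of 25 measured acute phase and other plasma proteins, A2m fell and none rose. The list had 17 members below 0 and a median of -0.06, and in 7 members all dosed arrays lay below all vehicle arrays, which held for 2.82% of all genes. Orm1, an acute phase glycoprotein, had 13.13, 13.05, 12.94 and 12.99 at 500 mg/kg and 12.48, 12.70, 12.29 and 12.40 in vehicle, a change of 0.56 the other way that did not pass (adjusted p 0.0534). Apoa4 had -0.63 (adjusted p 0.0842), Serpina6, the corticosteroid carrier, -0.41 (adjusted p 0.068) and Apoa1 -0.31 (adjusted p 0.111). Of 12 measured thyroid carriers and responsive genes 1 fell, Serpina7, and none rose (median -0.01, 6 above and 6 below 0). Ttr, the other thyroxine carrier of rat plasma, read 14.17 to 14.21 at 500 mg/kg and 14.19 to 14.24 in vehicle, near the top of the array's scale, and Dio1, the liver deiodinase, 6.54 to 6.90 and 6.68 to 7.07, and neither passed (-0.03 and -0.11).

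Fabp7, a fatty acid binding protein best known from brain, fell. In these livers its probe set read 11.32, 11.49, 11.50 and 11.46 at 500 mg/kg, against 12.04, 12.18, 12.24 and 12.18 in vehicle. Both groups were tight and did not overlap. The change was -0.72 ± 0.09, or 1.65-fold lower (adjusted p 0.000361, at most 0.0041 with an array left out, and -0.71 without vehicle replicate 2). Of 9 fatty acid binding proteins it alone passed, and Fabp1, the main liver form, had 0.09. Fabp12 had -0.41 with all dosed arrays below all vehicle arrays (adjusted p 0.14).

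The remaining falls were spread over genes of different kinds. Prdx4, a peroxiredoxin of the endoplasmic reticulum, read 11.61, 11.51, 11.60 and 11.43, against 11.78, 11.89, 11.89 and 11.97 in vehicle (-0.34 ± 0.06, adjusted p 0.0265), and was the only 1 of 20 endoplasmic reticulum genes to pass (median 0.03, 12 above 0). Tmed3, which helps sort cargo between endoplasmic reticulum and Golgi, read 7.52, 7.47, 7.71 and 8.01, against 7.90, 8.57, 8.38 and 8.80 in vehicle. It is the one called probe set whose groups overlap, since dosed replicate 4 lay above vehicle replicate 1 (-0.74 ± 0.15, adjusted p 0.0338). Pcsk5, a protease that cuts secreted precursors, passed with a dim probe set that read 3.97, 4.04, 4.07 and 3.72, against 4.62, 4.46, 4.49 and 4.57 in vehicle (-0.58 ± 0.11, adjusted p 0.0265). Its other probe sets had 0.14 each and did not pass. Tmbim7, of the Bax inhibitor motif family, read 3.34, 3.06, 3.54 and 3.20, against 4.24, 4.34, 4.83 and 4.26 in vehicle, also dim (-1.13 ± 0.20, adjusted p 0.0163).

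These calls rested on single arrays to different degrees. Tmbim7 was lost without dosed replicate 4 or vehicle replicate 3 (adjusted p at most 0.0994), Prdx4 without dosed 2 or 4 or vehicle 2, 3 or 4 (at most 0.13), Pcsk5 without dosed 1 or 4 or vehicle 2, 3 or 4 (at most 0.131) and Tmed3 without dosed 1, 2 or 3 or vehicle 2, 3 or 4 (at most 0.139). Tmbim7, Prdx4, Pcsk5 and Tmed3 had changes without vehicle replicate 2 of -1.16, -0.34, -0.61 and -0.69. Smaller falls were those of LOC102556004 (-0.57), Acsl6, an acyl-CoA synthetase read near the floor of the array (-0.50), Fli1, a transcription factor of blood and endothelial cells (-0.49), Agpat3, a phospholipid acyltransferase (-0.40), and Tmsb4x, the actin-binding thymosin beta-4 (-0.38). A pair of probe sets without a symbol fell by 1.05 and 1.83. The calls of LOC102556004, Acsl6, Fli1, Agpat3 and Tmsb4x passed in 2, 3, 1, 2 and 1 of the 8 fits with an array left out, and all 5 were lost without vehicle replicate 2, 3 or 4.

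Probe sets annotated to Myh1, the myosin heavy chain of fast skeletal muscle, fell together. Of 5 such probe sets 3 passed, with changes of -1.08, -0.55 and -0.39, and the others had -0.66 and -0.23. The one with the largest change read 8.82, 9.12, 9.15 and 9.40 at 500 mg/kg, against 10.01, 10.16, 10.23 and 10.42 in vehicle, with no overlap (adjusted p 0.000252, at most 0.00291 with an array left out, and -1.10 without vehicle replicate 2). Probe sets of other muscle genes did not pass: Ckm, muscle creatine kinase, read 3.58 to 4.07 at 500 mg/kg and 3.77 to 4.28 in vehicle, and Acta1, muscle actin, 2.85 to 2.99 and 2.84 to 3.52. Myh4, a further muscle myosin, read 2.42 to 3.07 and 2.56 to 2.73. In kidney the same Myh1 probe set read 10.02 ± 0.12 at 500 mg/kg and 10.24 ± 0.08 in vehicle (SD, n = 3 each), so the signal is not confined to liver. Whether these probe sets read Myh1 or another transcript was not tested.

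For 17 of the 44 genes the array holds more than 1 probe set. In 10 of them every probe set moved in the called direction, and in 7 (Eci1, Mgll, C8h11orf54, Mtap, Agpat3, Acsl6 and Pcsk5) at least 1 did not. In all, 16 of 24 further probe sets had the direction of the call. For Hspb8, Mtap, Sord, Myh1, Fli1 and Pcsk5 the called probe set is not the brightest of the gene.

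Of the lymphocyte, stellate, macrophage, endothelial and cholangiocyte markers measured, most had a change below 0 and 1, Jchain, passed. Jchain, which joins the units of secreted IgA and IgM and marks plasma cells, fell: 5.88, 5.87, 5.68 and 5.67 at 500 mg/kg, against 6.88, 6.44, 6.60 and 6.40 in vehicle (-0.81 ± 0.17, adjusted p 0.0472). Its groups did not overlap, its second probe set had -0.28, and its call was lost whichever array was left out (adjusted p at most 0.182, and 0.1 with a change of -0.85 without vehicle replicate 2). All 11 measured lymphocyte and plasma cell markers had a change below 0 (median -0.19), and their mean level was 4.95 to 5.04 at 500 mg/kg and 5.15 to 5.29 in vehicle. Over all genes, 6710 of 14217 had a change below 0. Ccl5, a chemokine of T cells, had -0.51 and adjusted p 0.0534. In bulk tissue, fewer cells of a type and less RNA per cell cannot be told apart.

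The same direction was seen in 12 of 13 stellate cell and fibroblast markers (median -0.31, mean level 6.89 to 7.07 at 500 mg/kg and 7.14 to 7.50 in vehicle), with none called. Dcn, the matrix protein decorin, had -0.67 (adjusted p 0.158) and Col1a1, a collagen chain, -0.48 (adjusted p 0.355). Against the same vehicle arrays, Col1a1 had -0.51 at 0.1 mg/kg and -0.45 at 300 mg/kg. Dcn had -0.33 and -0.58 at these doses, and none of these passed. Without vehicle replicate 2 the median of the stellate markers at 500 mg/kg was -0.22. Macrophage markers had 8 of 9 below 0 (median -0.18, levels 8.53 to 8.61 and 8.50 to 9.005), endothelial markers 7 of 8 (median -0.15, levels 8.14 to 8.17 and 8.24 to 8.34) and cholangiocyte markers 5 of 6 (median -0.16, levels 5.12 to 5.33 and 5.18 to 5.705), none of them called. Of macrophage markers Adgre1 had -0.48 and Csf1r -0.27, and of endothelial markers Ptprb -0.30 and Tek -0.23. Of cholangiocyte markers the keratins Krt7 and Krt19 had -0.45 and -0.35. Krt19 read 6.76 in vehicle replicate 2, 5.19 to 5.72 in the other vehicle arrays and 5.29 to 5.71 at 500 mg/kg. Krt7 had -0.75 at 1 mg/kg and -0.77 at 100 mg/kg against vehicle, neither passing. The part of these cell types in the falls of Fli1, Tmsb4x and Jchain was not tested. Hepatocyte markers had a median of -0.02, pericentral markers 0.25 (6 of 7 above 0) and periportal markers 0.01, where Ass1 had 0.23 and Sds 0.34. Neutrophil (median -0.01, with Csf3r at 0.17 and Cxcr2 at -0.10), erythroid (0.06, Slc4a1 0.12, Alas2 -0.11) and fat markers (-0.003, Lep -0.13, Plin1 0.11) had none called. Neither did pancreas (0.11, Cel 0.16, Cpa1 0.17) or kidney markers (0.08, Umod 0.16, Slc12a1 0.08).

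**Figure D2:**
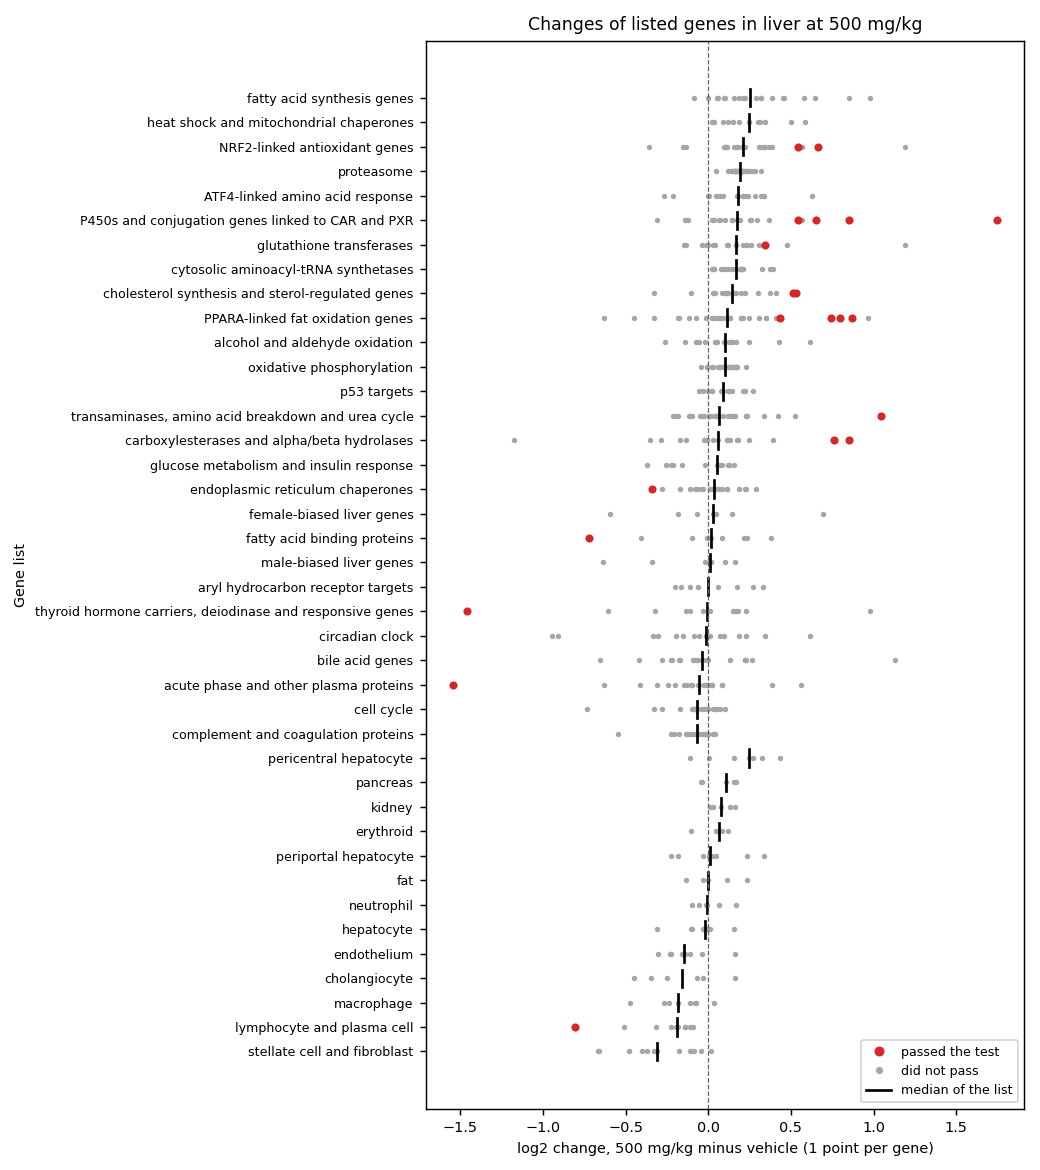
Log2 change in liver, 500 mg/kg minus vehicle, of each measured gene (points) in 27 lists of pathways and 13 lists of cell type markers, with the median of each list as a bar. Red points passed the test: 4 each in the CAR and PXR list and the PPARA list, 2 each in the NRF2, cholesterol and hydrolase lists, and 1 in each of 7 other lists, while all measured proteasome, tRNA synthetase and heat shock genes lie above 0 with none called. Over all genes, 52.8% had a change above 0.

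Several lists lay to 1 side of 0 without any member passing. All 26 measured proteasome genes had a change above 0 (median 0.19), and in 12 of them all dosed arrays lay above all vehicle arrays. Over all genes, 52.8% had a change above 0, and 4.53% had all dosed arrays above all vehicle arrays. Psmc5, an ATPase of its cap, had 0.32 (adjusted p 0.168) and Psmd4, a ubiquitin receptor, 0.27 (adjusted p 0.223). All 19 cytosolic aminoacyl-tRNA synthetases (median 0.17) and all 13 heat shock and mitochondrial chaperones (median 0.25) were above 0 as well. Yars1, the tyrosine enzyme, had 0.39 (adjusted p 0.119) and Nars1, the asparagine enzyme, 0.32 (adjusted p 0.27). Hspa4 had 0.34 (adjusted p 0.0534) and Hspe1, the small mitochondrial chaperonin, 0.31 (adjusted p 0.158). The ATF4-linked amino acid response had 17 of 19 above 0 (median 0.18). Slc3a2 and Slc7a1, both amino acid transport proteins, had 0.24 and 0.32. At 300 mg/kg against vehicle, Yars1, Nars1, Slc3a2 and Slc7a1 changed more, by 0.58, 0.57, 0.82 and 0.83. All of these passed there (adjusted p 0.0114, 0.0213, 0.0104 and 0.0438). At 0.1 mg/kg they had 0.47, 0.42, 0.46 and 0.66, and none passed. Oxidative phosphorylation had 22 of 25 above 0 (median 0.10), with Atp5f1c at 0.17 and Uqcrfs1 at 0.15.

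Complement and coagulation proteins lay on the other side, with 20 of 23 below 0 (median -0.07), against 6710 of 14217 over all genes. C5 had -0.21 and Serpind1, heparin cofactor II, -0.17. Bile acid genes had 15 of 21 below 0 (median -0.04), with the canalicular pumps Abcb4 at -0.42 and Abcb11 at -0.23. Cyp7a1, which sets the pace of bile acid production, read 10.70, 10.60, 10.23 and 11.004 at 500 mg/kg and 10.55, 8.72, 9.94 and 8.81 in vehicle. The vehicle arrays were far apart, replicates 1 and 3 near the dosed arrays, and the change of 1.13 did not pass (adjusted p 0.453). Aryl hydrocarbon receptor targets had 4 of 8 above 0 (median -0.002). Cyp1a1, their classic member, read 4.85 to 5.44 and 4.64 to 5.13 (0.33), and Cyp1a2 had 0.27.

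Alcohol and aldehyde oxidation had 12 of 17 above 0 (median 0.10). Adh1c, the main liver alcohol dehydrogenase, read 13.55, 13.15, 13.59 and 13.59 at 500 mg/kg and 13.24, 12.99, 12.93 and 13.01 in vehicle. Dosed replicate 2 lay among the vehicle arrays, and the gene did not pass (0.43, adjusted p 0.261), nor did Cyp2e1 (0.25). Targets of p53 had 10 of 13 above 0 (median 0.09), with Mdm2 at 0.23, Plk2 at 0.27 and Cdkn1a, the cell cycle inhibitor p21, at 0.12. Glucose metabolism had a median of 0.06, with Pc at -0.21 and Fbp1 at -0.16, the cell cycle -0.07, with Ccnd1 at -0.74 and Bub1b at -0.17, and the circadian clock -0.02, with Per3 at -0.33 and Per2 at 0.18. Male-biased liver genes had a median of 0.01, with Cyp2c11 at 0.16, and female-biased genes 0.03, with Cyp2c12 at -0.60 and Prlr at 0.70, and none passed in any of these lists.

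The dose series shows where the changes at 500 mg/kg stood against lower doses. Comparisons of each dose with vehicle share the 4 vehicle arrays. Against vehicle, 38 probe sets (0.122%) passed at 300 mg/kg and 0 at 0.1, 1, 10 and 100 mg/kg. Of the 44 genes, 3 also passed at 300 mg/kg: Tm7sf2 (0.54) and Tubb4b (0.53) higher and Fabp7 (-0.49) lower, each with adjusted p 0.0328. The 30 risen genes had a median change of 0.12, 0.14, 0.14, 0.13 and 0.20 at the 5 lower doses, low to high, against 0.57 at 500 mg/kg. For the 14 fallen genes the medians were -0.20, -0.13, -0.16, -0.25 and -0.33, against -0.65 at 500 mg/kg. Single genes departed from these medians. At 0.1 mg/kg the risen genes ran from -0.19 to 0.71 and the fallen genes from -0.56 to -0.01, none passing. Creg1, Hspb8, Pcsk5 and Tmed3 had 0.67, 0.50, -0.56 and -0.52 there, against 0.71, 0.56, -0.58 and -0.74 at 500 mg/kg. All 44 genes were chosen for a difference between the 500 mg/kg and vehicle arrays. That choice by itself favours those groups as the extremes, with lower doses between them, so the medians are not a test of dose response.

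**Figure D3:**
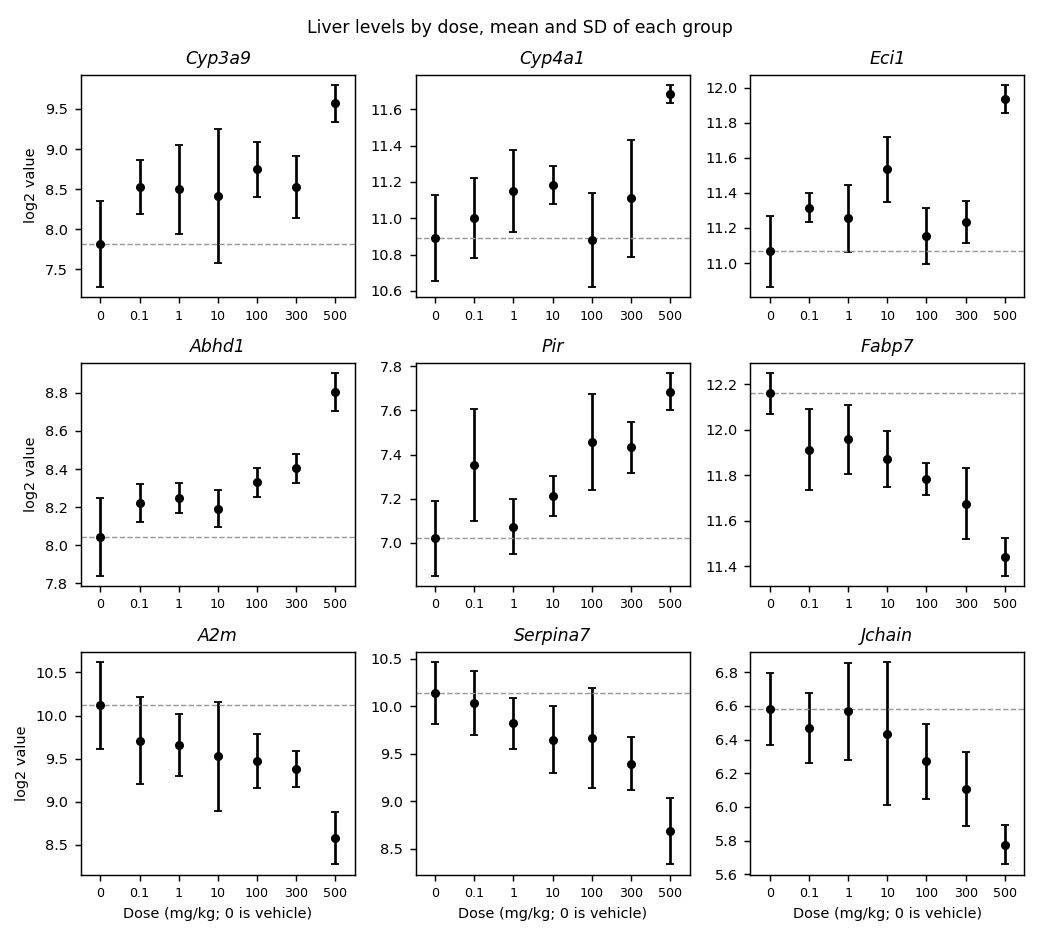
Log2 level in liver (mean and SD of 3 or 4 arrays per dose, vertical) over the 7 doses in mg/kg (horizontal, evenly spaced), with the vehicle mean as a dashed line. Fabp7, A2m and Serpina7 have their lowest mean at 500 mg/kg and their highest in vehicle, and Eci1 has 11.53 at 10 mg/kg and 11.94 at 500 mg/kg. All genes shown passed at 500 mg/kg against vehicle, a choice that favours those groups as the extremes.

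Fabp7 averaged 12.16 ± 0.09, 11.91 ± 0.18, 11.96 ± 0.15, 11.87 ± 0.12, 11.78 ± 0.07, 11.67 ± 0.16 and 11.44 ± 0.08 over vehicle and the 6 doses, low to high (SD, n = 4, and 3 at 0.1 mg/kg). Serpina7 averaged 10.14 ± 0.32, 10.03 ± 0.33, 9.82 ± 0.27, 9.65 ± 0.35, 9.67 ± 0.52, 9.40 ± 0.28 and 8.68 ± 0.35 over the same doses. In both, the mean was lowest at 500 mg/kg and highest in vehicle, the groups on whose difference these genes were chosen. Cyp3a9 averaged 7.82 ± 0.54 in vehicle and 8.53 ± 0.34, 8.50 ± 0.55, 8.41 ± 0.83, 8.75 ± 0.34, 8.53 ± 0.39 and 9.57 ± 0.23 at the 6 doses. Its vehicle arrays were thus the lowest group, and the doses below 500 mg/kg had means between 8.41 and 8.75.

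Because the calls depend on single arrays, vehicle arrays among them, 500 mg/kg was also set against the mean of the 0.1, 1 and 10 mg/kg groups, a comparison without vehicle arrays that was chosen after the values had been seen. There 149 probe sets passed (0.48%), among them 30 of the 44 genes by any of their called probe sets. The dosed arrays on which the 44 genes were chosen enter this comparison too, so passing in it is partly built in. It does not address the dependence of the calls on single dosed arrays. Cyp3a9 had 1.09 (adjusted p 0.0616), Cyp3a23-3a1 0.68 (0.00321), Eci1 0.57 (0.00321), Cyp4a1 0.58 (0.0292), Serpina7 -1.15 (0.0038) and A2m -1.06 (0.0278). Creg1 had 0.22 and Tubb4b 0.21 in that comparison, and neither passed.

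Set directly against 300 mg/kg, 2 probe sets were higher at 500 mg/kg (0.00644%) and none lower, with 2456 at an unadjusted p below 0.05. Eci1 was higher by 0.70 ± 0.11 (adjusted p 0.0323), with 11.94 ± 0.08 at 500 mg/kg and 11.23 ± 0.12 at 300 mg/kg (SD, n = 4 each). Acot2, which had not passed against vehicle, was higher by 0.59 ± 0.10 (adjusted p 0.0323), with 9.16 ± 0.13 at 500 mg/kg and 8.57 ± 0.15 at 300 mg/kg. No probe set passed without any 1 of 500 mg/kg replicates 2, 3 and 4 or 300 mg/kg replicates 3 and 4, 1 passed without 500 mg/kg replicate 1, and 2 and 3 passed without 300 mg/kg replicates 2 and 1.

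Kidney arrays of the same doses (n = 3 each) give the changes of these genes in the other organ. In kidney 0 probe sets (0%) passed at 500 mg/kg against vehicle, with 3131 at an unadjusted p below 0.05. That fit held only the 17 kidney arrays, so 0 calls do not show that the liver changes were absent in kidney. Each gene is given here by its called probe set with the largest change in liver. The 30 genes that rose in liver had kidney changes from -0.40 to 1.09 with a median of 0.07, 22 of them above 0. The value of 1.09 is that of Creg1 (SE 0.37, adjusted p 0.377), whose other called probe set had 0.11 in kidney, and the other called probe set of Mgll had 0.98 against 0.19 for the one given. The 14 that fell in liver had kidney changes from -0.22 to 0.12 with a median of -0.07. The group means of A2m, Serpina7, Fabp7, Cyp3a9 and Cyp3a23-3a1 lay between 2.67 and 3.58 in kidney at 500 mg/kg and between 2.83 and 3.37 in kidney vehicle, near the bottom of the array's scale.

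The liver change minus the kidney change, tested in 1 fit of all arrays, passed for 9 probe sets (0.029%), 3 higher and 6 lower. That fit treats liver and kidney arrays as independent, and the labels do not say whether arrays of both organs came from the same rats. With the replicate number as a block 3 probe sets passed. Slc16a13 was the single gene of the 44 among them. In liver it read 7.41, 7.24, 7.34 and 7.51 at 500 mg/kg, against 6.90, 6.77, 6.63 and 6.65 in vehicle. Kidney averaged 8.79 ± 0.10 at 500 mg/kg and 9.19 ± 0.10 in vehicle (SD, n = 3 each), a change of -0.40, and the difference between the organs was 1.04 ± 0.20 (adjusted p 0.0316). The other named genes were Hes6 (1.05) and Ccdc85c (1.12), higher in liver's change, and Spats2l (-1.35), Cgnl1 (-1.35) and Trps1 (-1.55), lower, none of which passed in liver alone. Myh1 (-0.86, adjusted p 0.0618), A2m (-1.66, 0.0704), Serpina7 (-1.27, 0.0836) and Pir (0.90, 0.0836) came near the threshold. The count was 0 without kidney vehicle replicate 2, 746 without kidney vehicle replicate 1, 24 without kidney 500 mg/kg replicate 1, and between 2 and 5 without kidney vehicle replicate 3, kidney 500 mg/kg replicates 2 or 3, liver 500 mg/kg replicates 2 or 4 or liver vehicle replicates 2, 3 or 4.

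**Figure D4:**
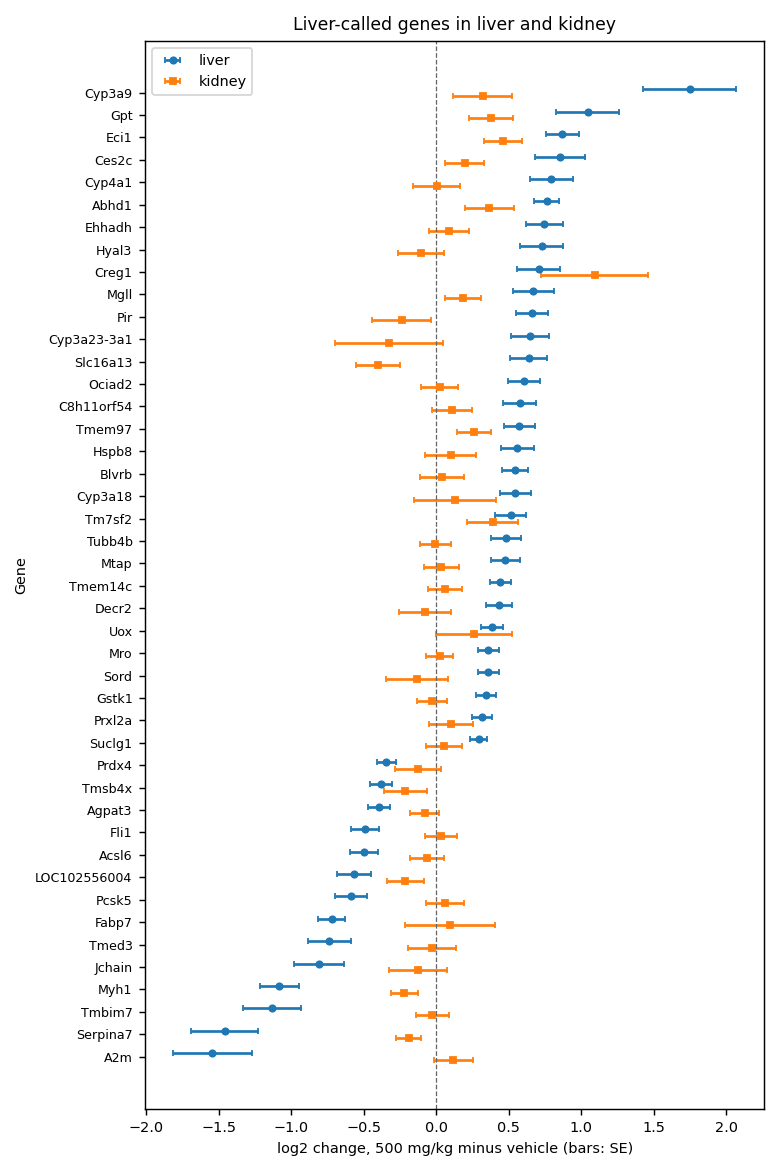
Log2 change at 500 mg/kg minus vehicle, with SE, in liver (circles, 4 arrays a group) and kidney (squares, 3 arrays a group) for the 44 genes that passed in liver, each by its called probe set with the largest liver change. Kidney points lie between -0.40 and 0.46, apart from Creg1 at 1.09, and Slc16a13 has changes of 0.64 in liver and -0.40 in kidney.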

How the data were processed

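The deposited values are log2 expression estimates made by the authors with RMA, per the submitters' processing notes. The RMA version, the chip definition and whether both organs were normalized together were not given in the sources used here. RMA scales all arrays to 1 distribution, so a shift of all genes together would not be seen, and it compresses low signals. Of 31099 probe sets, 57 controls were left out and 31042 tested on the values as deposited. A symbol came from the platform annotation, updated through gene ID for 20758 probe sets: 20826 have 1 symbol, 436 several and 9780 none. The 14217 genes each stand by their brightest probe set over the 27 liver arrays.

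Tests used limma 3.58.1 in R 4.3.3 with lmFit and eBayes over all 7 liver dose groups (20 residual degrees of freedom), or over all 44 arrays for the organ difference, with Benjamini-Hochberg adjustment and a threshold of 0.05. The kidney comparison used a fit of the 17 kidney arrays alone. The liver fit was tested on simulated data with known changes. The number of arrays limits the precision. The labels call the arrays biological replicates without naming animals. Liver p-values set a change against a spread pooled over the 7 liver dose groups, not over the compared groups alone. They cover only the variation between these arrays.

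The comparison and the gene lists were chosen with earlier results of these data known. Every called probe set with 1 symbol is named. Values in every array are given for the 12 largest rises, the 8 largest falls and called list members. For lists with none called, the changes of the 2 members of smallest p are given. A few genes, such as Cyp7a1, were given whatever their values. Cyp2b1 and Cyp2b2 are not analysed here. No pair of the 44 arrays was identical (0 found).

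Replicate numbers were checked for pairing: deviations of same-numbered dosed and vehicle arrays correlated at 0.03, -0.004, -0.11 and 0.05, so the numbers were not used as pairs. Alternatives were a filter on dim probe sets, a second quantile normalization, the replicate number as a block, a trended robust prior, only the contrasted groups, each array left out, and the mean of the 0.1, 1 and 10 mg/kg groups in place of vehicle, the last chosen after seeing the data.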

Additional observations from a re-analysis of the deposited data

Results flagged for a closer look

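Among 108 groups of 4 liver arrays examined (54 genes in dosed and in vehicle liver), 10 held an array far from the other 3 by Dixon's gap test, and chance gives about 1 in 20 groups. At 500 mg/kg, replicate 2 was low for Decr2 (10.59, the others 10.72 to 10.73), Gstk1 (11.38, against 11.51 to 11.53 in the others) and Adh1c (13.15, the others 13.55 to 13.59). Replicate 4 was high for Ehhadh (11.81, the others 11.51 to 11.55), and replicate 3 was high for Ttr by a few hundredths (14.21, the others 14.17 to 14.18).

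In vehicle, replicate 1 was high for Ehhadh (11.25, the others 10.68 to 10.76) and for Nqo1 (7.954, the others 7.223 to 7.336). Replicate 3 was high for Acsl6 (3.942, the others 3.619 to 3.64) and low for Mro (8.334, the others 8.546 to 8.558), and replicate 4 was high for Cdkn1a (8.146, the others 7.632 to 7.668). Slc16a13 was the gene called in liver whose change differed between organs, its liver change exceeding its kidney change by 1.037 log2 units in the test of the difference itself.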

How the results depend on the processing

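None of the 44 genes changed direction under any alternative, but for most settings this was nearly fixed in advance. Leaving out an array cannot reverse a change whose groups do not overlap. A filter, another prior or fewer groups in the fit leaves each change as it is. The total number of probe sets called at 500 mg/kg against vehicle, 55 as reported, was 104 with dim probe sets left out, 136 with a trended robust prior, 1 with only the 8 contrasted arrays, 149 against the mean of 0.1, 1 and 10 mg/kg (chosen after seeing the data), and 9 to 84 with single arrays left out. The organ difference (9 called) gave 70, 26 and 2 under the first 3 of these, 16 after a second quantile normalization, and 0 to 746 with arrays left out. The 2 calls of 500 against 300 mg/kg became 4, 16 and 0, and 0 to 3 with arrays left out. Fewer arrays were left to estimate the spread in the fits with only the contrasted groups, and fewer probe sets were adjusted over where dim ones were left out. For the other settings the cause was not tested. With the replicate number as a block the counts were 42, 3 for the organ difference and 1 for 500 against 300 mg/kg, and 31 of the 44 genes passed. A second normalization left 36 of the 44.

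Most list medians moved less than the spread between arrays. Exceptions with dim probe sets left out were aryl hydrocarbon receptor targets (-0.11), lymphocyte and plasma cell markers (-0.35) and kidney markers (0.028). Complement and coagulation proteins had -0.094 after the second normalization. With single arrays left out, medians ran from -0.035 to 0.066 for aryl hydrocarbon receptor targets, -0.083 to -0.037 for plasma proteins, -0.34 to -0.22 for stellate markers, -0.052 to 0.12 for fat markers and 0.035 to 0.13 for kidney markers. Medians of aryl hydrocarbon receptor targets and of fat markers thus changed sign. Single genes were recomputed for 54 genes, the 44 called and 10 others. Among these, values that reversed were those of Cdkn1a against the low doses (-0.21) and Ttr after the second normalization (0.00096), neither of them called. Signals near the floor, as for Tmbim7, Pcsk5 and Acsl6, limit what a change there can show.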
